A study of Saccharomyces cerevisiae with 4 samples.

Results

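The genes described here encode the stress sensors of the budding yeast cell wall: WSC1 (YOR008C, also named SLG1), WSC2 (YNL283C) and WSC3 (YOL105C) of the WSC family, and MID2 (YLR332W) and MTL1 (YGR023W) of the MID family. They were chosen by systematic name, by a rule that names no value though earlier results of these data were known, and are 5 of the 6207 yeast genes with a row in the deposited table. Values were present on all 4 arrays for WSC1, WSC2 and MID2, on 2 arrays for WSC3 and on none for MTL1.

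The cells were Saccharomyces cerevisiae of a hog1 mutant; HOG1 encodes the terminal kinase of the osmotic stress pathway, a mitogen-activated protein kinase (MAPK), and treated and untreated cells carried the same mutation. Cultures in YEPD, a rich medium, were grown at 24 °C and divided, and 1 part received Zymolyase at 5 units/ml, a preparation with glucanase activity that digests the wall, while the other part stayed untreated, and cells were collected for RNA at 3 h. RNA of 2 cultures was hybridised to 4 arrays with 2 dyes, 2 hybridisations per culture, with Cy3 on the treated RNA of arrays 1 and 3 and Cy5 on that of arrays 2 and 4. Per the labels the hybridisations of a sample included a dye swap, which leaves 1 array of each orientation per culture, but which arrays belong to the same culture is not labelled; wild-type cells were not analysed here, and HOG1 itself had no value on any array, so the strain could not be checked from it.

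The sensors are rod-like proteins of the plasma membrane that cross it once. Their extracellular part is rich in serine and threonine and carries O-linked mannose, and their short cytoplasmic tail passes the signal to Rom2, an exchange factor for the GTPase Rho1. Rho1 activates the kinase Pkc1, which starts the MAPK cascade Bck1, Mkk1 and Mkk2, and Slt2 of the cell wall integrity pathway; Slt2 acts on the transcription factors Rlm1 and Swi4-Swi6. The WSC proteins carry a cysteine-rich head that MID proteins lack. Wsc1 and Mid2 are the main sensors in wild-type cells, and MID2 was found as a gene that cells need to survive exposure to mating pheromone.

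Each value below is a log2 ratio of treated over untreated RNA on 1 array, so 1 stands for 2-fold and 0 for no difference. It is a difference between conditions, not a level, and does not tell which sensor is the more abundant. In RNA from a whole culture, a change in all cells and a change in some of them cannot be told apart. The direction is the likely one, as no source used here names the numerator: the linear ratios behind the values had the same numerator on all 4 arrays once the sign of arrays 2 and 4 was turned, and treated over untreated is the order of the design. With the opposite numerator every sign below would turn, while sizes and p-values would stand. Arrays 1 to 4 held values for 45.0%, 67.1%, 85.7% and 82.6% of yeast genes, and 2715 genes had all 4 values and were tested. A gene was called at an adjusted p under 0.05 by limma on the 2 culture means, as the larger p of both ways to pair arrays of opposite orientation. The number of arrays limits the precision.

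WSC2 and MID2 rose in the treated cells and WSC1 did not pass the test. Of the 3 sensor genes tested, 2 were called, both higher. Over all 2715 tested genes 2.21% were called, with 2.03% higher and 0.184% lower.

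WSC2 had log2 ratios of 1.22, 1.30, 1.30 and 1.25 on arrays 1 to 4. Every array thus read between 2.34-fold and 2.47-fold, and the dye orientations overlapped. The mean was 1.27 ± 0.04 (SD, n = 4 arrays), or 2.41-fold, with a 95% interval of 0.94 to 1.59 and adjusted p = 0.0115 by limma. The interval is far wider than the spread between these 4 arrays, since limma moves each gene's variance towards that of all genes. WSC2 ranked 43rd from the highest of the 2715 means.

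MID2 read 0.49 on array 1 and 0.45 on array 3, while array 2 gave 1.19 and array 4 gave 1.30. All 4 arrays lay above 0, which held for 9.83% of tested genes, but the arrays with treated RNA in Cy5 both lay above those with it in Cy3. The mean was 0.86 ± 0.45 (SD, n = 4 arrays), or 1.81-fold, with a 95% interval of 0.53 to 1.18 and adjusted p = 0.0476 by limma. It was the 79th highest mean, and 57 of the 60 called genes had a smaller adjusted p.

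WSC1 had log2 ratios of −0.18, 0.26, 0.28 and 0.10 on arrays 1 to 4. Array 1 was below 0 and the other 3 above it. The mean was 0.11 ± 0.21 (SD, n = 4 arrays), or 1.08-fold, and did not pass (adjusted p = 0.744 by limma). Its 95% interval ran from −0.22 to 0.45, which is 0.856-fold to 1.37-fold, so a rise as large as the mean of WSC2 lies outside it and a small change in either direction lies inside it.

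WSC3 had values on arrays 3 and 4 only, 0.08 and 0.65. Both lay above 0, at 1.06-fold and 1.57-fold, and with 1 array of each orientation and an unknown culture for each there was no test. In all, 15.5% of yeast genes had values on these same 2 arrays and no others. MTL1, the relative of MID2, shared the lack of any value with 11.7% of yeast genes, and nothing can be said of its response.

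**Figure D1:**
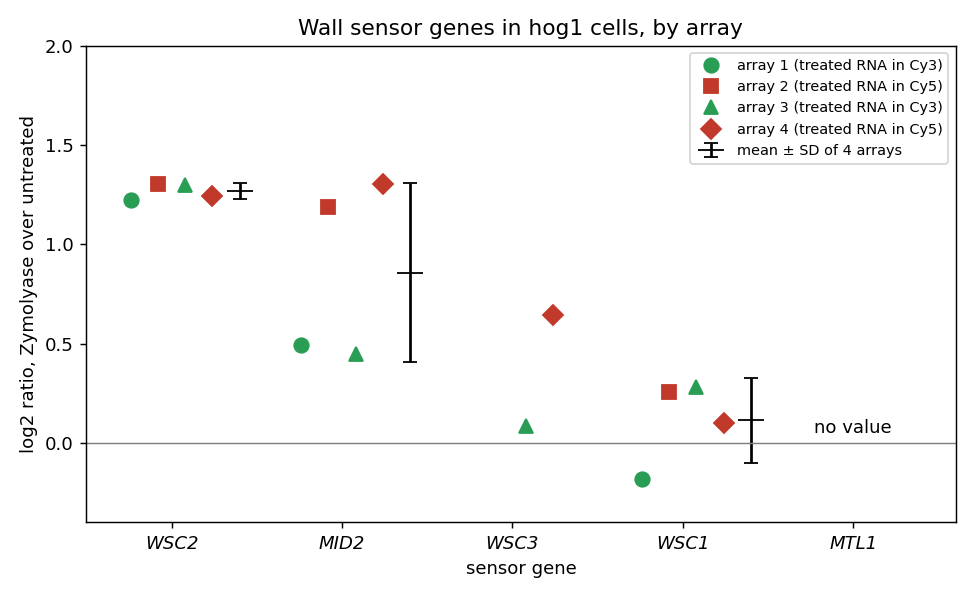
Log2 ratio of Zymolyase-treated over untreated hog1 cells for each sensor gene (x axis) on each array (symbols), coloured by the dye of the treated RNA, with the mean ± SD of 4 arrays in black where all had a value. The 4 symbols of WSC2 lie within 1.22 to 1.30, those of MID2 fall into 0.45 to 0.49 (Cy3) and 1.19 to 1.30 (Cy5), and those of WSC1 straddle 0.

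In order of the mean ratio the sensors ran WSC2, MID2, WSC3, WSC1. WSC2 exceeded WSC1 by 1.41, 1.05, 1.02 and 1.14 on arrays 1 to 4, a mean difference of 1.15 ± 0.18 (SD, n = 4 arrays). MID2 exceeded WSC1 by 0.67, 0.93, 0.17 and 1.20, a mean difference of 0.74 ± 0.44. Both differences had 1 sign on all 4 arrays and were larger than their spread, and each had p = 0.125 in an exact two-sided sign-turn permutation test, the smallest that 4 arrays allow (0.188 after adjustment over the 3 pairs with 4 arrays). The arrays come from 2 cultures, so they are not 4 independent replicates.

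The order of the 2 sensors that rose was not settled. WSC2 exceeded MID2 by 0.73 and 0.85 on arrays 1 and 3, by 0.12 on array 2, and lay 0.06 below it on array 4 (difference −0.06), a mean of 0.41 ± 0.45 (SD, n = 4 arrays; exact two-sided sign-turn permutation p = 0.25). The difference was no larger than its spread. On the 2 arrays that measured WSC3, WSC2 exceeded it by 1.21 and 0.60 and MID2 exceeded it by 0.36 and 0.66. Against WSC1 it lay at −0.20 on array 3 and 0.55 on array 4, so WSC3 and WSC1 had no fixed order.

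**Figure D2:**
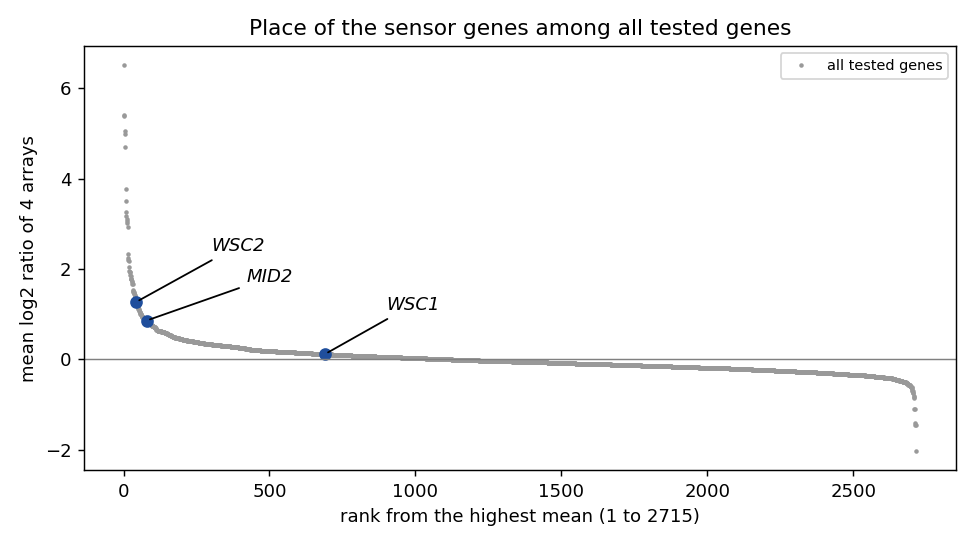
Mean log2 ratio of 4 arrays (y axis) for the 2715 tested genes ranked from the highest (x axis), with the tested sensor genes marked in blue. WSC2 at rank 43 and MID2 at rank 79 lie on the steep upper end, and WSC1 at rank 690 lies on the flat part where genes are near 0.

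The dye orientations lay apart for MID2 and together for WSC2. WSC2 had a mean of 1.26 with treated RNA in Cy3 and 1.27 with it in Cy5, a gap of 0.01. MID2 had 0.47 and 1.24, a gap of 0.77, and WSC1 had 0.05 and 0.18, a gap of 0.13. A gap at least as large as that of MID2, in either direction, was seen in 8.99% of tested genes, and the median size of the gap was 0.28. Both Cy5-treated arrays lay above both Cy3-treated arrays, as for MID2, in 24.2% of tested genes. With 1 array of each orientation in a culture the mean of MID2 balances the dyes, and its culture means were 0.84 and 0.88 with arrays 1+2 and 3+4 as pairs, and 0.90 and 0.82 with arrays 1+4 and 3+2. Arrays 1 and 3, and 2 and 4, each a pair of the same orientation, were also the closest in rank over all genes. Their Spearman rho was 0.36 and 0.42, against −0.06 to 0.16 for the other pairs of arrays, as a description across genes. By Pearson r, arrays 2 and 4 were closest (0.64), then 1 and 2 (0.56) and 1 and 3 (0.55). The labelled dye swap does not allow arrays 1 and 3, or 2 and 4, to share a culture. Had they done so, the culture means of MID2 would be 0.47 and 1.24. MID2 would then not be called (adjusted p = 0.214 by limma, chosen after the data were seen), while WSC2 would be (adjusted p = 0.0172). The part of the dye in the size of the MID2 ratio was not tested.

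The agreement of WSC2 over arrays was close for a gene of this ratio. Its SD over 4 arrays was the 8th lowest of 2715, where the median was 0.29. Of the 59 genes with a mean of at least 1, it had the lowest SD, the next being 0.198 and the median 0.51. These are descriptions of 4 arrays, with no test.

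**Figure D3:**
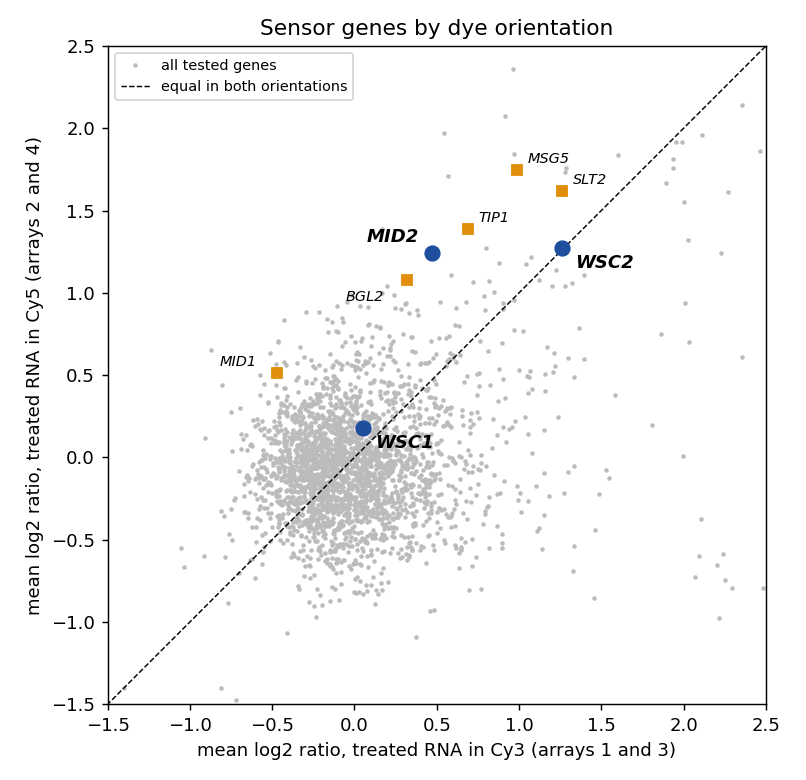
Mean log2 ratio on the arrays with treated RNA in Cy3 (x axis) against that on the arrays with it in Cy5 (y axis) for the tested genes that fall within the axes (grey), the sensors (blue) and 5 other genes (orange). WSC2 (1.26, 1.27) lies on the dashed line of equal ratios, while MID2 (0.47, 1.24) lies above it, near BGL2, TIP1 and MSG5.

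The call of each sensor that rose depended on the arrays and the scaling. WSC2 was called in 11 of 13 other fits, and its plain mean over the arrays used stayed within 1.26 to 1.30. It was not called without array 2 (mean 1.26, adjusted p = 0.0905 by limma) or with the spread of the arrays made equal (mean 1.29, adjusted p = 0.0569). WSC2 and MID2 both had an unadjusted p under 0.05 in all 13. Among these, the fit of 4 arrays with a dye term took the arrays as independent, though they come from 2 cultures. The fits with each pairing of opposite orientations alone could not lose a call, since the reported p is the larger of both. Where an array was left out, each mean given here is the plain mean of the 3 arrays left. The p of such a fit tests another estimate, the mean of 2 culture means of which 1 is a single array. MID2 was called in 8 of 13. It was not called without array 2 (mean 0.75, adjusted p = 0.454 by limma), without array 4 (0.71, adjusted p = 0.315), with equal spread (0.88, adjusted p = 0.105), with arrays 1+3 and 2+4 as pairs, or when 4090 genes with 3 or 4 values were tested together (0.86, adjusted p = 0.0599). The share of all tested genes called was 2.21% with arrays 1+2 and 3+4 as pairs, 10.2% with 1+4 and 3+2, 1.73% with 1+3 and 2+4, 2.39% with centred arrays, 1.14% with equal spread, 2.5% with a robust variance model and 1.49% with the genes of 3 or 4 values. It was 4.38% for 4 arrays with a dye term, 5.49% with cultures as a random block, and 2.65%, 0.81%, 4.75% and 2.1% without arrays 1, 2, 3 and 4. In the random-block fit the correlation within cultures was −0.317 with arrays 1+2 and 3+4 as pairs and −0.472 with 1+4 and 3+2. A negative correlation makes the standard error smaller than for independent arrays, so this fit is not a stricter check. WSC1 was called in 0 of 13, and in 0 of 13 its unadjusted p was under 0.05, with an adjusted p of at least 0.579 by limma. Its plain mean of the 3 arrays left ranged from 0.06 to 0.21 when an array was left out, which is not the estimate that those fits tested.

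**Figure D4:**
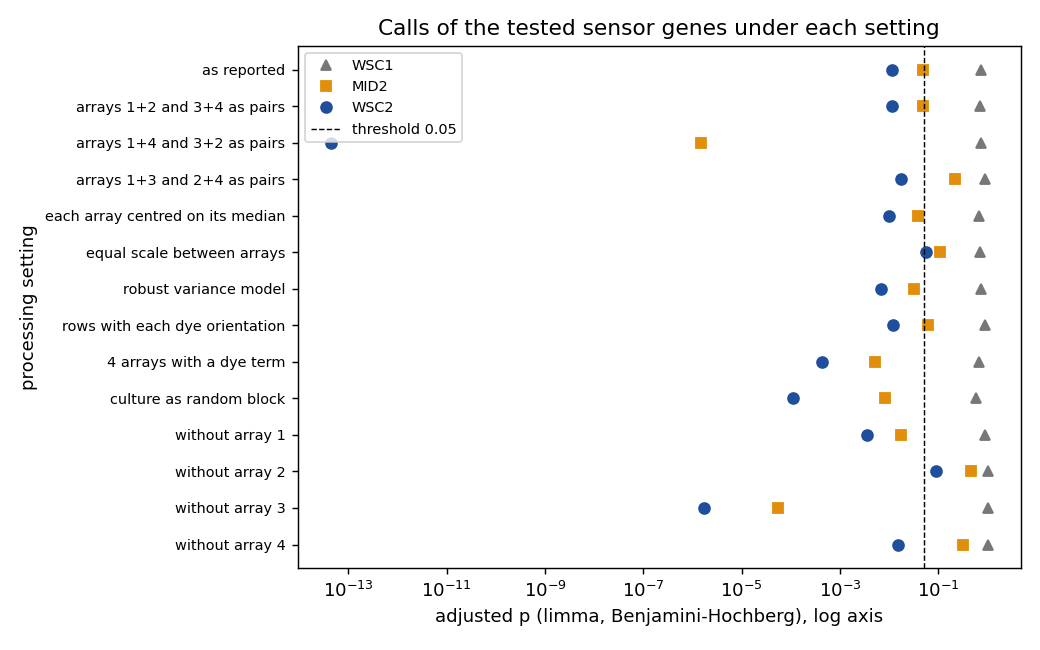
Adjusted p by limma on a log axis (x) for WSC2, MID2 and WSC1 under the reported setting and 13 others (y), with the threshold of 0.05 dashed. WSC2 is right of the line in 2 settings, MID2 in 5, and WSC1 in all.

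Genes with the most similar values over the 4 arrays were taken as the 3 with the smallest root mean square distance in log2 ratio. For WSC2 they were SRL1, MFA1 and PPG1, at distances of 0.22, 0.23 and 0.24 and with means of 1.18, 1.12 and 1.15, all called. MFA1 encodes the a-factor mating pheromone and SRL1 a mannoprotein of the wall; PPG1 encodes a protein phosphatase. For MID2 they were BGL2, TIP1 and STE14, at 0.17, 0.19 and 0.20. BGL2, a glucan-modifying enzyme of the wall, repeated the split by dye with 0.41, 1.09, 0.22 and 1.07 on arrays 1 to 4, and TIP1, a wall mannoprotein, did so with means of 0.69 in Cy3 and 1.39 in Cy5. STE14, which methylates a-factor, had a mean of 0.85 ± 0.38 (SD, n = 4 arrays). For WSC1 they were UTR2, IZH3 and YDR292C, at 0.07, 0.09 and 0.09, each with a mean between 0.06 and 0.11. UTR2 encodes a transglycosylase of the wall.

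Genes beside WSC2 and MID2 on their chromosomes did not share their ratios. The coding neighbours of WSC2 in the R64 gene order were MRPL10, with −0.21, −0.03, −0.48 and −0.59 on arrays 1 to 4, and POP3, with −0.67, 0, 0.93 and 0.11. Next to MID2, RPS25B had a mean of −0.15 and CHS5, beyond JIP3, −0.06. JIP3 overlaps MID2 and had no value on any array, so the MID2 row cannot be set against it. SGT2, next to WSC1, had 0.29, 0.18, 0.13 and −0.01, a mean of 0.15 near that of WSC1. YOL107W and NDJ1, beside WSC3, had values on 2 arrays (−0.45 and 0.24) and 1 array (0.41). DPC29 and THG1, beside MTL1, had means of −0.00 and 0.27.

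Among other sensors of the cell surface, none of the 5 tested genes was called by limma, and 2 had an unadjusted p under 0.05, both higher. Over all tested genes 2.21% were called, and 14.7% had an unadjusted p under 0.05, with 8.14% of all genes higher by it. With arrays 1+4 and 3+2 as pairs 3 of the 5 were called, where 10.2% of all tested genes were. With cultures as a random block 2 were, where 5.49% of all tested genes were. WSC4, a further WSC relative, had −0.30 and −0.89 on arrays 3 and 4, below 0 where WSC3 lay above it. MSB2, the mucin-like sensor shared by the osmotic and filamentation pathways, had the largest mean at 0.92 ± 0.93 (SD, n = 4 arrays; adjusted p = 0.341 by limma), with values of 1.92 and 1.46 on arrays 3 and 4 that stood above the 0.42 and −0.12 of arrays 1 and 2. OPY2, a membrane anchor of the same pathways, had 0.64 ± 0.46 (adjusted p = 0.122), and SHO1, an osmosensor, 0.60 ± 0.22 (adjusted p = 0.198). MID1, a subunit of a calcium channel that shares only the origin of its name with MID2, had −0.49 and −0.45 in Cy3 against 0.54 and 0.48 in Cy5, a wider split by dye than that of MID2 but around a mean of 0.02. CCH1, the partner of MID1, had no value. HKR1, the remaining tested gene, had −0.15, −0.12, −0.53 and 0.37 on arrays 1 to 4, a mean of −0.11 ± 0.37 (SD, n = 4 arrays).

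Below the sensors, 12 of 29 genes of the signalling cascade were tested, and 2 of them rose, the MAPK gene SLT2 and the phosphatase gene MSG5. Over all tested genes 2.03% were called higher and 0.184% lower. None of the 12 was called lower by limma or had an unadjusted p under 0.05 on the lower side. The median mean log2 ratio of the 12 was 0.04, against −0.05 over all tested genes. Of the 12 means 6 lay above 0, as did 1102 of the 2715 over all tested genes. Without array 2 none of the 12 was called by limma, against 0.81% of all tested genes, and 2 had an unadjusted p under 0.05. The list was drawn up with earlier results of these data known.

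The exchange factors, which take the signal from the sensors, lay near 0, and neither of the 2 tested was called. ROM2 had −0.03, 0.14, 0.05 and −0.23 on arrays 1 to 4, a mean of −0.02 with a 95% interval of −0.36 to 0.32, and its paralogue ROM1 had −0.12 ± 0.24 (SD, n = 4 arrays). TUS1, a further exchange factor, had −0.06, 0.14 and 0.56 on arrays 2, 3 and 4. All of these values lay below those of WSC2 on the same arrays.

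RHO1, the GTPase, had 0.39, 0.71, 0.21 and 0.79 on arrays 1 to 4. All arrays were above 0, higher in Cy5 than in Cy3 as for MID2, and the mean of 0.52 ± 0.27 (SD, n = 4 arrays) did not pass (adjusted p = 0.18 by limma). Of the proteins that switch Rho1 off, LRG1 had 0.04, 0.42 and 0.49 on arrays 2, 3 and 4, and SAC7 −0.38, 0.43 and −0.50. BEM2 had 0.17 and −0.05 on arrays 3 and 4, and BAG7 had no value. The lipid kinase genes STT4 and MSS4, whose products make the phosphoinositides that bring Rom2 to the membrane, had both signs: −0.31 and 0.35 for STT4 on arrays 3 and 4, and a mean of −0.01 ± 0.39 for MSS4.

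Within the kinase cascade SLT2 stood apart. SLT2 had 1.21, 1.78, 1.31 and 1.45 on arrays 1 to 4, a mean of 1.44 ± 0.25 (SD, n = 4 arrays), or 2.71-fold (adjusted p = 0.00869 by limma), beside the 2.41-fold of WSC2. The kinases between the sensors and SLT2 gave no such values. PKC1 had −0.42, 0.52 and −0.21 on arrays 2, 3 and 4, BCK1 0.02 and −0.67 on arrays 3 and 4, and MKK2 −0.25 and 0.29. MKK1 had a mean of −0.10 ± 0.31, and PKH1, whose kinase phosphorylates Pkc1, 0.09 ± 0.31. PKH2, the paralogue of PKH1, had −0.01, −0.03 and 0.16 on arrays 2, 3 and 4. SPA2, a scaffold of the cascade, had no value. SLT2 was not called without array 2 (adjusted p = 0.0854 by limma, with a plain mean of 1.32 over arrays 1, 3 and 4). Nor was it called with equal spread of the arrays (1.48, adjusted p = 0.0671).

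Of the transcription factors, RLM1 had 1.13 and 0.85 on arrays 3 and 4, the arrays on which WSC2 had 1.30 and 1.25. SWI4 had −0.18, −0.46 and −0.18 on arrays 2, 3 and 4, and SWI6 −0.04, 0.25 and −0.46 on arrays 1, 2 and 3.

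MSG5, a phosphatase that acts on Slt2 and on the mating MAPK Fus3, had 0.92, 1.66, 1.05 and 1.83 on arrays 1 to 4. Its mean was 1.36 ± 0.45 (SD, n = 4 arrays), or 2.57-fold (adjusted p = 0.00996 by limma), and its gap between orientations of 0.76 was nearly that of MID2. Without array 2 it was not called (adjusted p = 0.129 by limma, with a plain mean of 1.27 over arrays 1, 3 and 4). PTP2, which also acts on Slt2 and on Hog1, had 0.43 and 0.95 on arrays 3 and 4, while PTP3, its relative, had a mean of −0.05 ± 0.18, and SDP1 had −0.85 on array 3.

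Among modulators, ZEO1, whose product binds Mid2, had 0.10, −0.46, −0.10 and −1.17, a mean of −0.41 ± 0.56 (SD, n = 4 arrays; adjusted p = 0.341 by limma). Its split by dye ran opposite to that of MID2. ACK1 had −0.35, 0.02, 1.17 and 0.27, with array 3 far above the rest. KNR4, a regulator of wall synthesis that works with Slt2, had 0.33 ± 0.15, and KDX1, a kinase-like gene under Rlm1, −0.13 on array 3.

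**Figure D5:**
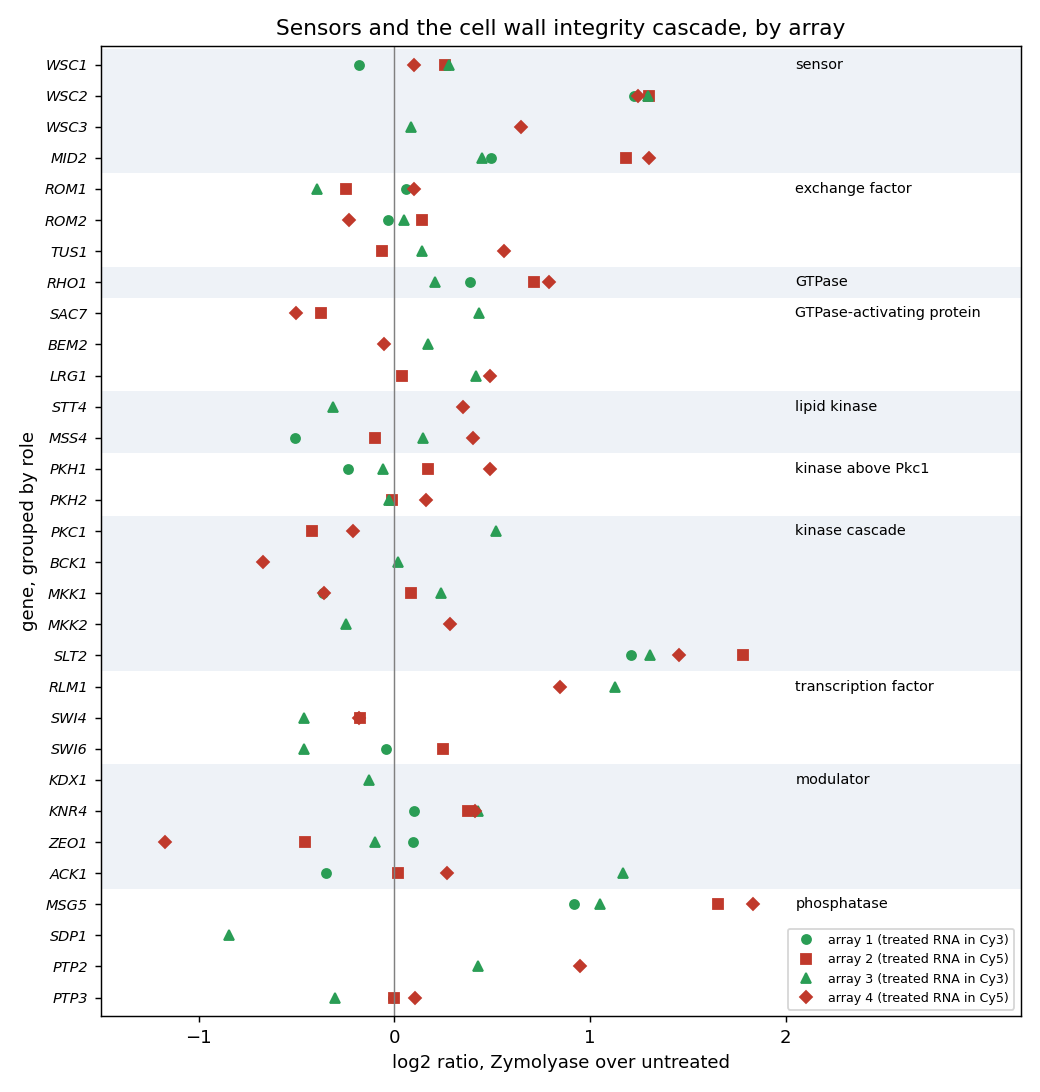
Log2 ratio (x axis) on each array (symbols, coloured by the dye of the treated RNA) for the sensor genes and the genes of the signalling cascade with any value, grouped by role (shaded bands). WSC2, SLT2 and MSG5 have all 4 arrays at 0.92 or above, MID2 starts at 0.45 and RLM1 at 0.85, while the exchange factors and the kinases above SLT2 lie around 0.

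The sensors depend on O-mannosylation for their extracellular part. Of 7 tested genes of O-mannosyl transfer and chain extension none was called by limma, and 3 had an unadjusted p under 0.05, all higher, against 2.21% called and 8.14% higher by the unadjusted p over all tested genes. With arrays 1+4 and 3+2 as pairs 2 of the 7 were called, where 10.2% of all tested genes were. PMT4 and PMT2, whose transferases act on the sensors, had means of 0.36 ± 0.30 and 0.08 ± 0.47 (SD, n = 4 arrays). The largest mean was that of KTR3, a mannosyltransferase gene, at 0.61 ± 0.44 (adjusted p = 0.139 by limma), with 0.11 and 0.37 in Cy3 against 0.95 and 1.02 in Cy5. MNT2, which extends the chains, had 0.45 ± 0.44 and the same split. PMT6 had 1.46 and 0.32 on arrays 3 and 4.

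Of 22 genes placed under Slt2 and Rlm1, 17 were tested, 6 rose, and 11 did not pass, with a median of 0.81; SLT2 is on both lists. Over all tested genes 2.03% were called higher. PRM5 (mean log2 ratio 3.17), GFA1 (1.87), SED1 (1.47), SLT2, TIP1 (1.04) and CRH1 (0.88) were called, and CWP1 at 3.01 ± 1.43 (SD, n = 4 arrays) was not (adjusted p = 0.0824 by limma). The ratio of WSC2 lay between those of SED1 and TIP1, and that of MID2 just below CRH1. Without array 2 none of the 17 was called by limma, though 12 had an unadjusted p under 0.05, and with equal spread of the arrays 1 was. Over all tested genes 0.81% and 1.14% were called in these fits. Of the 17, 15 were called with arrays 1+4 and 3+2 as pairs (10.2% of all tested genes) and 13 with cultures as a random block (5.49%). With a dye term 11 were (4.38%), and without array 3 the count was 9 (4.75%).

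Of 27 genes induced by mating pheromone, 22 were tested and 18 rose, with a median of 1.94, where 2.03% of all tested genes were called higher. Their largest means were those of PRM1 (6.51 ± 3.01, SD, n = 4 arrays), FIG1 (5.40 ± 0.88) and PRM3 (5.05 ± 1.60), which act in membrane fusion, mating and nuclear fusion. PRM1 had 4.22 in Cy3 against 8.79 in Cy5 and PRM3 3.66 against 6.43, so this order does not hold on the Cy3-treated arrays, where FIG1 had 5.55. WSC2 and MID2 lay at the lower end of this range, beside STE2, the receptor of alpha-factor (1.19, adjusted p = 0.0345 by limma), MFA1 (1.12) and SST2, which dampens the pheromone signal (0.96, adjusted p = 0.0476). FAR1, GPA1, TEC1 and MFA2 did not pass, at means of 0.80, 0.61, 0.92 and 0.40. Without array 2, 13 of the 22 were called, and with equal spread 14, against 0.81% and 1.14% of all tested genes. The count was 21 with arrays 1+4 and 3+2 as pairs, with a dye term, with cultures as a random block and without array 3. Over all tested genes 10.2%, 4.38%, 5.49% and 4.75% were called in these fits. All of these values come from the same 4 arrays, and whether the ratios of WSC2 and MID2 go with wall stress or with the mating response was not tested.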

How the data were processed

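The authors deposited normalized log2 ratios per gene and array; how images were read, corrected, normalized and filtered is not given in the sources used here, and spot intensities were not used. Of 6209 rows, 2 controls were left out, and 5654 of the other 6207 took symbols from NCBI RefSeq's R64 gene table. The sign of the 2 arrays with treated RNA in Cy5 was turned. After that, all 9281 values below 0 were base-2 logarithms of a ratio with 4 decimals to the deposited digits, against 55.4% of 8117 for the inverse ratio, which fixes the base and a shared numerator. Column medians as deposited were −0.06, 0.02, −0.08 and −0.03 and were kept; the numerator and any centring by the authors stay unknown.

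Arrays of a possible culture were averaged (n = 2). Both means entered limma 3.58.1 (lmFit and eBayes under R 4.3.3) for a test against 0, keeping the larger p of the dye-swap pairings 1+2 with 3+4 and 1+4 with 3+2, with Benjamini-Hochberg adjustment over 2715 genes. The 95% interval printed is the wider of both. The procedure was tested on simulated data. p-values measure only the spread between these samples, which limma pooled over genes. With arrays 1+4 and 3+2 as pairs it was pooled in full, so every gene had the same standard error, 0.156. The p-value printed for WSC1 came from that pairing. The genes and lists were chosen with earlier results of these data known. Named genes are the 5 sensors, the cascade list, the called and 3 largest members of the other lists, and the 3 nearest genes to each tested sensor; neighbours on the chromosome and other members were named after their values were seen. No sequence was used here.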

Additional observations from a re-analysis of the deposited data

Results flagged for a closer look

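Of 52 named genes with 4 values, 1 had a lone array standing off from its other 3 values; chance alone gives about 2.6. KNR4 had 0.0992 on array 1 against 0.38 to 0.43 on the others. None of the tested sensor genes had an array apart from the rest by this measure.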

How the results depend on the processing

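Cultures numbered 2, and 3 of the 5 sensors could be tested. The number of called genes was 60 and stayed within 1.5 times of that in 7 of 13 other fits. It moved to 277 with arrays 1+4 and 3+2 as pairs (72.9% higher, against 91.7%), 149 where cultures entered as a random block (79.9% higher), 119 for 4 arrays with a dye term, and 31 with equal spread of the arrays. The block fit had negative correlations within cultures, and the dye-term fit took the 4 arrays as independent. Without 1 replicate array it ranged from 22 (array 2) to 129 (array 3, 77.5% higher). WSC2 kept its direction in all 15 alternatives, with means from 1.26 to 1.30, and was not called with equal spread (1.29) or without array 2; without 1 array it ranged from 1.26 to 1.28. MID2 kept its direction in all 15, and was not called with equal spread (0.88), with arrays 1+3 and 2+4 as pairs (0.86, chosen after seeing the data), with genes of 3 or 4 values added (0.86), or without array 2 or 4; without 1 array it ranged from 0.71 to 0.99. The Cy3-treated arrays alone gave MID2 0.47 and the Cy5-treated arrays 1.24. WSC1 stayed above 0 and uncalled, from 0.06 to 0.21 without 1 array, and WSC3 was 0.08 or 0.65 on single arrays. Fits that changed only the pairing, the variance model, the dye term, the block or the genes tested kept each mean. Those fits could not turn a direction. The cause of the lost calls was not tested. In fits without 1 array, 1 culture was left with a single array and an uncancelled dye effect. The means given without 1 array are plain means of the arrays left, while those fits tested the mean of both culture means. Each ratio already pairs treated with untreated RNA, so the tests against 0 use that pairing. No further paired analysis was possible because all arrays belong to 1 group. MTL1 gave no value under any setting.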
